A study of Bos taurus with 10 samples.

Results

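The 5 rows described here belong to the major histocompatibility complex (MHC) class II genes of cattle, called BOLA for bovine leukocyte antigen. They were picked by name from the 27607 Ensembl gene IDs of a liver count table, because earlier results of the same data showed some of them at stable levels and others at 0 in single libraries. The rows are ENSBTAG00000010645 (BOLA-DRA), ENSBTAG00000013919 (BOLA-DRB3), and ENSBTAG00000009656, ENSBTAG00000021077 and ENSBTAG00000019588, all 3 given as rows of the BOLA-DQ region and called rows 09656, 21077 and 19588 after their last digits. These names came with the choice of rows. The count table holds IDs alone, and the gene table used here paired 0 of the 27607 with a symbol, so the names were not checked against the data. The levels that led to the choice are given below as a description, without a test.

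Class II molecules are pairs of an alpha and a beta chain that sit on the surface of antigen-presenting cells and show peptides taken up from outside the cell to CD4+ T cells. In the liver they are known from Kupffer cells, dendritic cells, B cells and the endothelium of the sinusoids more than from hepatocytes. In cattle BOLA-DRA encodes the DR alpha chain, which varies little between animals, and BOLA-DRB3 encodes the main expressed DR beta chain, one of the most variable bovine genes. The DQ alpha and beta genes are variable too, and some bovine haplotypes carry duplicated copies. In the RefSeq gene table of build ARS-UCD2.0, 4 genes have a symbol that starts with BOLA-DQ, namely BOLA-DQA2, BOLA-DQA5, BOLA-DQB and BOLA-DQB1, on the same chromosome as BOLA-DRA and BOLA-DRB3. With synonyms included, 6 genes carry a BOLA-DQ name. The counts were made with another build, ARS-UCD1.2, so a DQ row need not be any of these. Which gene each DQ row stands for is not known from the table. Reads of such similar genes may have been split between rows or lost to another row, so their counts are uncertain.

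Liver RNA came from Holstein cows, a dairy breed, 2 weeks before expected calving. The labels give 5 libraries from over-conditioned cows, which carry excess body fat, and 5 from normal-conditioned cows, with no other treatment named for either group. The libraries were made with a 3' mRNA kit, where each transcript is read at its poly(A) end and counts do not grow with its length. Totals ran from 3892292 to 6737548 counts. Over-conditioned replicate 2 was the shallowest library and stood apart, with a mean rank correlation of 0.936 with the other 9 libraries against 0.9499 to 0.957 for the others. The labels do not say that each library is a separate animal, so the p-values measure only how these samples spread, and that spread may be technical. Liver as the labelled tissue was not checked against marker genes, since that needs gene symbols.

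The DR alpha row was present in every library at similar levels. BOLA-DRA (ENSBTAG00000010645) stood at 258, 200, 138, 234 and 185 CPM (counts per 1000000 counts of the library) in over-conditioned replicates 1 to 5. It stood at 161, 129, 141, 233 and 125 CPM in normal-conditioned replicates 1 to 5. The groups overlapped, with over-conditioned replicate 3 among the low libraries and normal-conditioned replicate 4 among the high ones. Each value rested on 687 to 1391 counts. The highest library was 2.06 times the lowest. In the order of levels, 7 of the 9 neighbouring pairs had overlapping 95% exact Poisson intervals. The 2 steps lay below normal-conditioned replicate 4 and below over-conditioned replicate 5. All such intervals cover counting error only.

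The DR beta row lay at much the same level and was also present throughout. BOLA-DRB3 (ENSBTAG00000013919) stood at 223, 111, 166, 279 and 178 CPM in over-conditioned replicates 1 to 5 and at 120, 103, 139, 213 and 187 CPM in the normal-conditioned ones. Over-conditioned replicate 4 was highest, and the low end held normal-conditioned replicates 2 and 1 and over-conditioned replicate 2. The highest library was 2.72 times the lowest, on 433 to 1452 counts. Counts of BOLA-DRB3 per count of BOLA-DRA ran from 0.557 in over-conditioned replicate 2 to 1.499 in normal-conditioned replicate 5. The mean ratio over the 5 over-conditioned libraries was 0.956 ± 0.267 (SD, n = 5), and over the 5 normal-conditioned ones 0.988 ± 0.301 (SD, n = 5).

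Among the DQ rows, 19588 was abundant in most libraries and at 0 in 1 of them. ENSBTAG00000019588 stood at 178, 166, 102, 169 and 118 CPM in over-conditioned replicates 1 to 5. In normal-conditioned replicates 1 to 5 it stood at 266, 124, 40.8, 0 and 11.3 CPM. The normal-conditioned libraries therefore held both the highest library and the 3 lowest, and the over-conditioned libraries lay between them. Normal-conditioned replicate 4 had 0 of 5957752 counts, with an upper 95% Poisson limit of 0.619 CPM. The floor of 3 counts stood at 0.504 CPM there. At the median level of the other 9 libraries, 124 CPM, that library would have held 736 counts, and at the lowest level among them, 11.3 CPM in normal-conditioned replicate 5, it would have held 67.2. Normal-conditioned replicate 1 was 528-fold above the 3-count floor of normal-conditioned replicate 4. Without normal-conditioned replicate 4 the range was 23.6-fold, from normal-conditioned replicate 5 to replicate 1.

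The levels of row 19588 fell into steps that counting error does not bridge. Normal-conditioned replicate 1 lay apart from the next library, over-conditioned replicate 1. Over-conditioned replicates 1, 4 and 2 overlapped with their neighbours at 166 to 178 CPM. Normal-conditioned replicate 2 and over-conditioned replicates 5 and 3 formed a second run of overlapping neighbours at 102 to 124 CPM. The ends of this run did not overlap, with intervals of 115 to 133 CPM in normal-conditioned replicate 2 and 94.4 to 110 CPM in over-conditioned replicate 3. The runs therefore rest on comparing neighbours only and are not single levels. Normal-conditioned replicates 3, 5 and 4 each lay apart from the library above. A count of 0 says that no read was assigned to the row. No genotype was measured, so whether the steps follow haplotypes was not tested. Steps were not particular to this row: BOLA-DRB3 had them below over-conditioned replicates 4 and 3 and normal-conditioned replicates 4 and 3. The whole range of BOLA-DRB3 was 2.72-fold.

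Row 09656 was a low row with absences in other libraries. ENSBTAG00000009656 stood at 33.4, 0, 7.33, 10.95 and 10.7 CPM in over-conditioned replicates 1 to 5. It stood at 0.154, 4.69, 12.1, 43.8 and 8.63 CPM in normal-conditioned replicates 1 to 5. Over-conditioned replicate 2 had 0 counts, with an upper 95% Poisson limit of 0.948 CPM and a 3-count floor of 0.771 CPM. Normal-conditioned replicate 1 had 1 count. At the median of the other 8 libraries, 10.8 CPM, these libraries would have held 42.1 and 70.2 counts. Normal-conditioned replicate 4 and over-conditioned replicate 1 were the 2 high libraries, with overlapping counting intervals. The other 6 libraries with the row lay from 4.69 to 12.1 CPM, and neighbours in that run overlapped. The ends of the run did not overlap, with intervals of 3.14 to 6.73 CPM in normal-conditioned replicate 2 and 9.21 to 15.6 CPM in normal-conditioned replicate 3. The highest library was 56.8-fold above the 3-count floor of over-conditioned replicate 2.

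Row 21077 did not follow the pattern of presence in most libraries and absence in a few. ENSBTAG00000021077 had 1, 0, 0, 1 and 0 counts in over-conditioned replicates 1 to 5 and 1, 0, 2, 4 and 1 counts in the normal-conditioned ones. All 10 counts of the row together were too few for the test, and 9 of 10 libraries were at or under 3 counts. No difference between libraries was detectable at this depth. It is therefore neither a stable row nor one missing from single libraries.

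**Figure D1:**
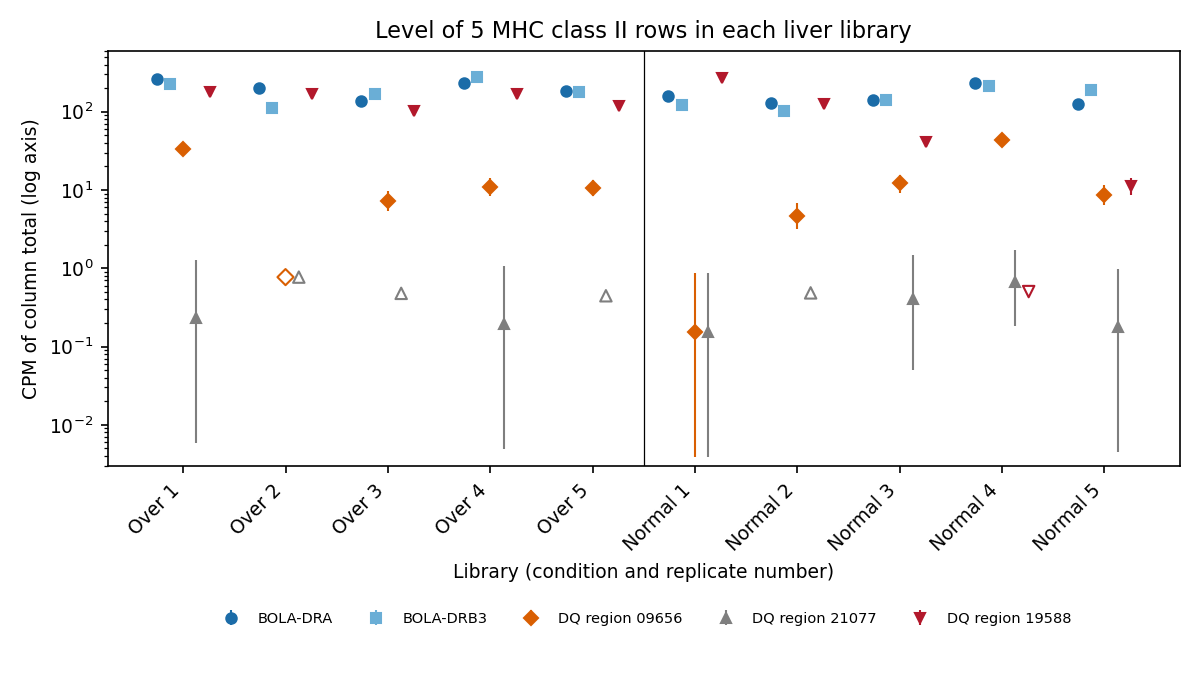
Level of the 5 rows in each library, in CPM on a log axis, with 95% exact Poisson intervals as bars; an open symbol stands for 0 counts and is drawn at the level of 3 counts in that library. BOLA-DRA and BOLA-DRB3 stay between 103 and 279 CPM in all 10 libraries, while row 19588 is at 0 in normal-conditioned replicate 4 and row 09656 at 0 or 1 count in over-conditioned replicate 2 and normal-conditioned replicate 1.

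The libraries that lacked row 19588 or row 09656 held the other of these 2 rows. The absences were in 1 and 2 of the 10 libraries, so unrelated rows would mostly be absent from different libraries as well. Normal-conditioned replicate 4, at 0 for row 19588, had the highest level of row 09656, 43.8 CPM. Normal-conditioned replicate 1, with 1 count of row 09656, had the highest level of row 19588, 266 CPM. Over-conditioned replicate 2, at 0 for row 09656, stood at 166 CPM for row 19588, below 3 other libraries. The 2 rows did not simply replace each other, since over-conditioned replicate 1 was second highest for both. Across the 10 libraries, log2(CPM + 1) of the 2 rows had a Pearson r of -0.55 and a Spearman rho of -0.37, and without single libraries r ran from -0.71 (without over-conditioned replicate 1) to -0.31 (without normal-conditioned replicate 4). Both rows share libraries and depth, and a single zero weighs heavily in such a value.

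The DR rows differed between the libraries with an absence. In normal-conditioned replicate 4, which lacked row 19588, both BOLA-DRA, at 233 CPM, and BOLA-DRB3, at 213 CPM, were exceeded by 2 libraries alone. In over-conditioned replicate 2 BOLA-DRA was at 200 CPM, below 3 libraries, whereas BOLA-DRB3 was at 111 CPM, second lowest. Normal-conditioned replicate 1 lay in the lower part for both, at 161 and 120 CPM. Both libraries without row 09656 were thus among the 3 lowest for BOLA-DRB3. The lowest of all, normal-conditioned replicate 2, held row 09656 at 4.69 CPM. In bulk tissue, fewer cells of a type and less RNA per cell cannot be told apart. Levels of antigen-presenting cell markers were not measured here, for want of gene symbols, and their part in any of these levels was not tested.

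Set against BOLA-DRA of the same library, row 19588 was even in one group and scattered in the other. Its counts per BOLA-DRA count were 0.692, 0.830, 0.742, 0.720 and 0.636 in over-conditioned replicates 1 to 5, and 1.65, 0.957, 0.290, 0 and 0.0901 in normal-conditioned replicates 1 to 5. All 5 over-conditioned ratios lay inside the normal-conditioned range. The over-conditioned mean was 0.724 ± 0.0713 and the normal-conditioned mean 0.598 ± 0.699 (SD, n = 5 each). The difference in scatter was seen in the values and was not tested. For row 09656 the same ratio was 0.130, 0, 0.0532, 0.0467 and 0.0577 in over-conditioned and 0.000958, 0.0363, 0.0859, 0.188 and 0.0690 in normal-conditioned libraries. It was scattered in both groups.

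The make-up of the summed counts shows the same contrast on one scale. The 5 rows together held 413 to 694 CPM in over-conditioned libraries, with a median of 491, and 333 to 547 CPM in normal-conditioned ones, with a median of 360. Row 19588 made up 25.7%, 34.8%, 24.7%, 24.4% and 24.0% of these counts in over-conditioned replicates 1 to 5. In normal-conditioned replicates 1 to 5 its shares were 48.6%, 34.3%, 12.2%, 0% and 3.39%. The 95% exact (Clopper-Pearson) interval was 47.0% to 50.3% in normal-conditioned replicate 1 and reached up to 0.126% in replicate 4. BOLA-DRB3 took its largest share, 56.4%, in normal-conditioned replicate 5, and its smallest, 21.9%, in replicate 1. BOLA-DRA ran from 29.4% to 47.5%, the narrowest span among the 3 abundant rows in these libraries.

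**Figure D2:**
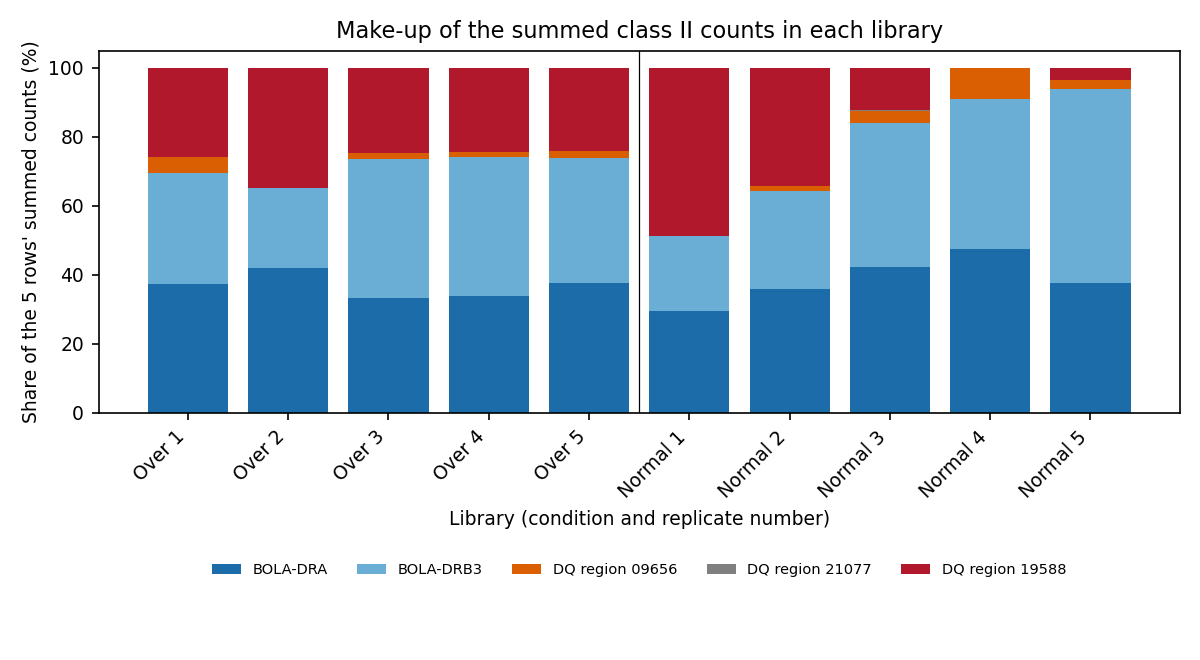
Share of the summed counts of the 5 rows that each row held, in percent, by library; bars are stacked to 100%, and row 21077 is too low to be seen. Row 19588 holds 24.0% to 34.8% in the over-conditioned libraries and 0% to 48.6% in the normal-conditioned ones.

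Against the whole table, the DR rows ranged like other abundant genes and the DQ rows did not. Among 1019 genes tested with a mean of 100 CPM or more, the median gene had its highest library 1.75 times its lowest. The 95th percentile was 3.83-fold, above both DR rows. Ranges at least as wide as that of BOLA-DRA were found in 28.8% of these genes, and as wide as that of BOLA-DRB3 in 12.5%. No other gene of the 9162 tested had a range as wide as row 19588, which was picked with that range in view. Row 09656, with a mean of 13.2 CPM, was matched or passed in range by 11 of 4334 genes with a mean from 10 to under 100 CPM, itself included, where the median was 1.92-fold. The spread that edgeR estimated around the group means, as a biological coefficient of variation, was 22.5% for BOLA-DRA, 25.7% for BOLA-DRB3, 98.9% for row 19588 and 102% for row 09656. The median over all genes tested was 21.8%.

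**Figure D3:**
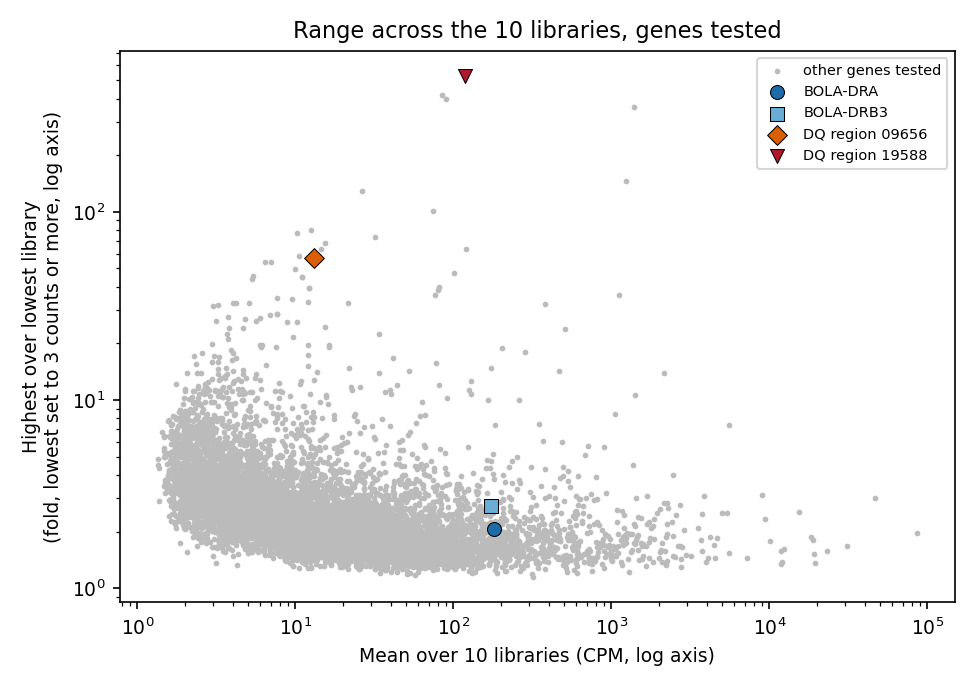
Highest over lowest library, with the lowest set to no less than 3 counts, against the mean over 10 libraries in CPM, both on log axes, for the 9162 genes tested (grey) and the 4 class II rows among them. BOLA-DRA (2.06-fold) and BOLA-DRB3 (2.72-fold) lie in the cloud of genes of their level, and rows 19588 (528-fold) and 09656 (56.8-fold) lie above it.

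Absence of this kind was rare in the table. Of 5353 genes with a mean of 10 CPM or more, 12 had at least 1 library at 3 counts or fewer, or 0.224%. Rows 19588 and 09656 are 2 of these 12. Of the 12, 5 were absent from 1 library, 1 from 2 libraries, which is row 09656, and 6 from 3 or more. Row 19588 was the 1 gene with an absence among the 1019 genes at 100 CPM or more. The number of these genes absent per library ran from 0 to 5, highest in over-conditioned replicate 2. Normal-conditioned replicates 1 and 4 had 4 each, as did replicate 3. BOLA-DRA and BOLA-DRB3 had none.

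The rows whose pattern was most like a member were looked for by Pearson r of log2(CPM + 1) over the 10 libraries, among the 9162 genes tested. For row 19588 the first was ENSBTAG00000037605, r = 0.94, and the second ENSBTAG00000046759, r = 0.93. These IDs have no symbol here, and nothing is known of their place. ENSBTAG00000037605 stood at 71.6, 113, 124, 211 and 116 CPM in over-conditioned replicates 1 to 5 and at 128, 40.2, 20.9, 0.504 and 22.4 CPM in normal-conditioned ones. ENSBTAG00000046759 stood at 34.6, 14.4, 17.7, 19.2 and 16.3 CPM and at 19.6, 10.3, 12.9, 0 and 7.75 CPM in the same order. Both were lowest in normal-conditioned replicate 4, with 3 and 0 counts.

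These are also the 2 rows, beside 19588, that were absent from normal-conditioned replicate 4 and no other library among genes with a mean of 10 CPM or more. Without that library their r with row 19588 was 0.78 and 0.71. An r over 0.9 with 3 rows, as row 19588 had, equals the median for the 1019 genes at 100 CPM or more. Since both were picked for likeness over these libraries, their match is a description. In the fit of condition ENSBTAG00000037605 had a log2 fold of 1.49 (SE 0.68), over-conditioned over normal-conditioned, and ENSBTAG00000046759 one of 0.93 (SE 0.54). Neither passed edgeR's quasi-likelihood test with Benjamini-Hochberg adjustment (adjusted p = 0.660 and 0.750).

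**Figure D4:**
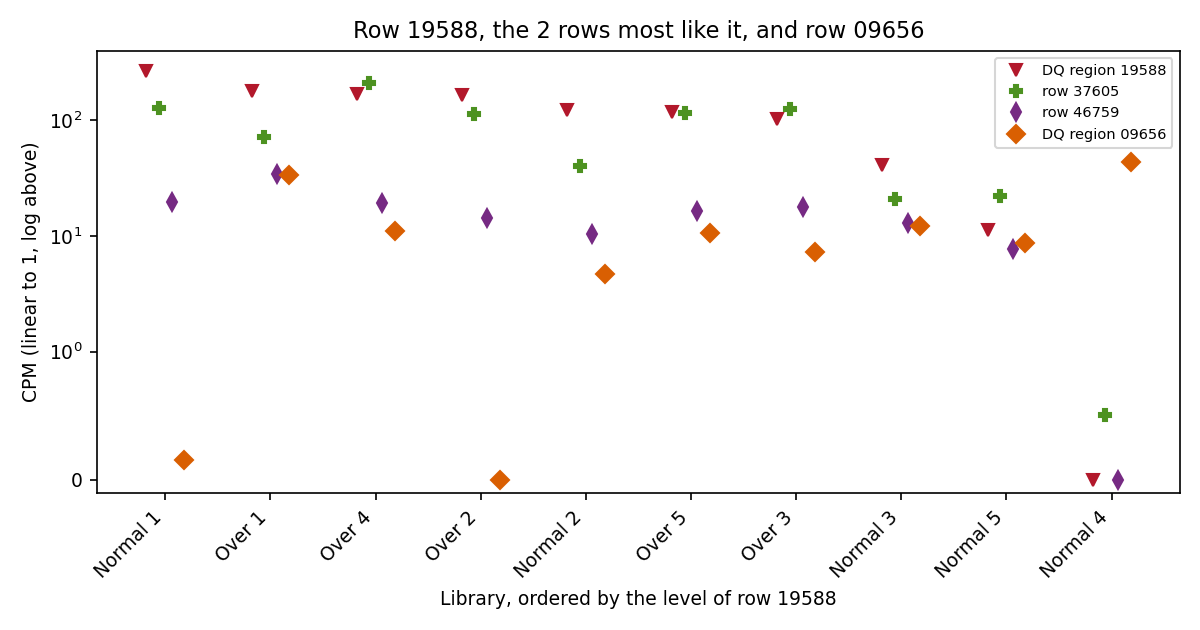
Level in CPM of row 19588, of rows 37605 and 46759 (ENSBTAG00000037605 and ENSBTAG00000046759), which follow it most closely, and of row 09656; the axis is linear up to 1 CPM and logarithmic above. Libraries are ordered by row 19588, and in the last, normal-conditioned replicate 4, the first 3 rows are at 0 to 0.504 CPM while row 09656 is at 43.8 CPM.

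BOLA-DRA had other rows closer to it than any member. The first was ENSBTAG00000007129, r = 0.95, a low row of 2.05 to 4.15 CPM, and the second ENSBTAG00000033032, r = 0.94, at 18.3 to 32.2 CPM. BOLA-DRB3 followed BOLA-DRA with r = 0.58 (Spearman rho 0.56), and 9.40% of the other 9161 genes tested did so at least as closely. Without single libraries r ran from 0.47 to 0.73, and it was 0.26 without both over-conditioned replicates 1 and 4, the libraries farthest from the BOLA-DRA median, where the range of BOLA-DRA is also narrower. Row 09656 was nearer to BOLA-DRB3 (r = 0.73) than to BOLA-DRA (r = 0.34). Of the other genes tested, 3.31% followed BOLA-DRB3 and 29.4% followed BOLA-DRA at least as closely as row 09656 did. Both values of r include the libraries at 0 or 1 count of row 09656. Row 19588 had r = -0.03 with BOLA-DRA over all 10 libraries and r = 0.60 without normal-conditioned replicate 4.

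The study's comparison is that of over-conditioned with normal-conditioned cows, which the choice of rows did not use. None of the 4 class II rows tested passed the threshold. Mean BOLA-DRA was 203 ± 46.3 CPM with over-conditioning and 158 ± 44.5 CPM without (SD, n = 5 each), and its log2 fold, over-conditioned over normal-conditioned, was 0.30 (SE 0.19, 95% interval -0.10 to 0.70). Mean BOLA-DRB3 was 191 ± 63.1 against 152 ± 46.4 CPM, and its log2 fold was 0.28 (SE 0.22, 95% interval -0.19 to 0.75). Their intervals reach from a slightly lower level to less than a doubling. Adjusted p was 0.751 and 0.785 in edgeR's quasi-likelihood test.

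The DQ rows were far less precise. Mean row 19588 was 147 ± 34.2 CPM with over-conditioning and 88.3 ± 110 CPM without (SD, n = 5 each), and its log2 fold was 0.62 (SE 0.83, 95% interval -1.14 to 2.39, edgeR adjusted p = 0.876). That value depended on the model: it was 3.08 with limma-voom (adjusted p = 0.683), outside this interval, and 1.84 in edgeR with the replicate number as a block (adjusted p = 0.899). Mean row 09656 was 12.5 ± 12.5 against 13.9 ± 17.3 CPM, and its log2 fold was -0.19 (SE 0.83, 95% interval -1.96 to 1.58, edgeR adjusted p = 0.969). These intervals leave room for more than a doubling in either direction. In no tested member were the groups free of overlap, against 1.28% of all genes tested. At an adjusted p under 0.05 edgeR called 0 of 4 members, where it called 0 of 9162 genes (0.0%). At an unadjusted p under 0.05 it called 0 of 4 members and 692 genes (7.55%). DESeq2, run without the edgeR filter, called 21 of 15956 genes at an adjusted p under 0.05 (0.132%), none of them a member. That base is all genes with a DESeq2 p-value, also those without an adjusted p, such as row 21077. The median log2 fold was 0.29 over the 4 members tested, which ran from -0.19 to 0.62, and 0.01 over all genes tested. The difference between these medians was not tested.

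Single libraries moved these folds. Without over-conditioned replicate 2, the library that stood apart, the log2 folds were 0.31 for BOLA-DRA, 0.42 for BOLA-DRB3, 0.57 for row 19588 and 0.11 for row 09656, with adjusted p from 0.694 to 0.994 in edgeR. Without normal-conditioned replicate 4 they were 0.47, 0.41, 0.30 and 0.92 in the same order, with adjusted p from 0.465 to 0.904. Without normal-conditioned replicate 1 the fold of row 19588 was 1.61 (edgeR adjusted p = 0.880).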

How the data were processed

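Per the submitters' processing notes, cutadapt 1.18, STAR 2.6.0c and RSEM 1.3.1 were used with builds ARS-UCD1.2 and bosTau9. The authors deposited a table of whole, unnormalised counts for Ensembl gene IDs in 10 libraries; 15973 IDs had any count. The roles of the tools, and the counting of reads that match several genes, are not given in the sources used here. Columns were matched to samples by library name. CPM are counts per 1000000 of the column total. Condition was tested in edgeR 4.0.16 (R 4.3.3): filterByExpr (minimum count 10, minimum total 15) left 9162 genes, followed by TMM scaling, the quasi-likelihood F-test and Benjamini-Hochberg adjustment over all genes at 0.05. Standard errors were derived from each fold and its F value, so the 95% intervals are approximate. Alternatives used DESeq2 1.42.0, limma 3.58.1, other scalings and filters, a replicate block and leaving out each library. A row was called absent from a library at 3 counts or fewer; correlations used log2(CPM + 1). Exact intervals used SciPy 1.17.1. The tests were tried on simulated data, but the outcome is not given and is not used as support here. The members, lists and rules were chosen with earlier results of these data known. The rule for named genes took the 5 members and, without symbols, the 2 rows most like BOLA-DRA and the 2 most like row 19588. The gene lists of antigen presentation, interferon response and cell type markers were not tested, for want of symbols. No sequence is printed, since none was given for these rows.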

Additional observations from a re-analysis of the deposited data

Results flagged for a closer look

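Row 09656 (ENSBTAG00000009656) stood at 43.8 CPM in normal-conditioned replicate 4, far above the other 4 normal-conditioned libraries at 0.154 to 12.1 CPM. By Dixon's gap rule it was the 1 library flagged among 12 groups of values examined. Its gap to the next library was 0.726 of the group's range, just past the critical value of 0.71. Others fell narrowly short: 0.672 for row 09656 in the over-conditioned group and 0.670 for BOLA-DRA in the normal-conditioned group. The ratio of BOLA-DRB3 to BOLA-DRA in the normal-conditioned group reached 0.680. Chance gives about 1 in 20 for values not chosen for their spread, and this rate does not apply here, since the rows were picked for how they vary between libraries; the value is a description. The same library was the one at 0 for row 19588. Without it the log2 fold of row 09656 was 0.92 instead of -0.19.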

How the results depend on the processing

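The count of 0 genes called was 21 with DESeq2, and 0 to 1 on leaving out single libraries (1 without normal-conditioned replicate 1); the cause was not tested. No member passed the threshold in any of 16 alternatives. BOLA-DRA, BOLA-DRB3 and row 19588 kept a positive log2 fold in all 16, from 0.21 to 0.47, 0.15 to 0.42 and 0.30 to 1.61 without single libraries. Row 19588 reached 3.08 with limma-voom (adjusted p = 0.683). Row 09656 turned positive with limma-voom (0.13) and without over-conditioned replicate 2 (0.11) or normal-conditioned replicate 4 (0.92), within -0.89 to 0.92 over single libraries left out; the cause was not tested. With the replicate block the log2 folds were 0.32, 0.26, 1.84 and -0.22 in the order BOLA-DRA, BOLA-DRB3, row 19588, row 09656, and 0 genes were called. Same-numbered libraries showed no pairing: their deviations correlated at -0.218 to -0.000159, and 0 libraries were closest to their own number. Fold ranges without single libraries ran from 1.87 to 2.06 for BOLA-DRA, 2.17 to 2.72 for BOLA-DRB3, 43.3 to 94.8 for row 09656 and 23.6 to 528 for row 19588; with TMM library sizes that of BOLA-DRB3 was 2.31. The 12 cases of a member at 3 counts or fewer were 6 at 0 counts only, and 9 of the 12 were in row 21077. The share of genes with an absence was 0.109% at a mean of 30 CPM or more. Row 21077 has no main fold and was left out of these comparisons.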
